A study of Mus musculus with 16 samples.

Results

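The 10 genes described here belong to the transcriptional core that sets fuel use in heart muscle, and their mRNA was followed in the ventricles of mice with and without aortic constriction, each with and without the kinase inhibitor THZ1. They are the 3 peroxisome proliferator-activated receptors (Ppara, Ppard and Pparg), the coactivators PGC-1α and PGC-1β (Ppargc1a and Ppargc1b), the 3 estrogen-related receptors (Esrra, Esrrb and Esrrg) and 2 of the retinoid X receptors (Rxra and Rxrg). These 10 of the 22372 genes in the table were taken by gene symbol, whatever their values. All 10 passed the filter of at least 10 normalized counts in at least 4 libraries, as did 13331 genes in all.

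PPARs are fatty acid-sensing nuclear receptors that bind DNA together with a retinoid X receptor partner and switch on genes for fatty acid uptake and oxidation. Estrogen-related receptors need no known natural ligand, bind single extended half-sites, and drive genes of the respiratory chain and the citric acid cycle. PGC-1 proteins do not bind DNA themselves; they dock on both receptor families and raise the transcription of their targets, and the failing heart is known for turning this program down.

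THZ1 is a covalent inhibitor of the transcriptional kinases CDK7, CDK12 and CDK13, and the study asked how blocking them changes the response of the heart to pressure overload. Transverse aortic constriction (TAC) narrows the aortic arch with a suture, and sham mice went through the operation without the suture. C57BL/6J mice, male by the study's methods and 10 to 12 weeks old at the start, carried no engineered allele and formed 4 groups of 4 libraries: sham operation with vehicle (Sham-Veh), sham with THZ1 (Sham-THZ1), constriction with vehicle (TAC-Veh) and constriction with THZ1 (TAC-THZ1). THZ1 was injected intraperitoneally at 10 mg/kg, 2 times a day, from postoperative day 1 to day 60, and mRNA was sequenced from a piece of ventricle. Nothing in the labels says that each library came from its own animal, so p-values measure the spread between these libraries. Where hearts are counted below, each stands for 1 library.

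Values are the authors' counts of reads per gene divided by a size factor of each library, called normalized counts here, and 21431703 to 35812869 reads per library were recovered from them. Myh6, Tnnt2 and the other cardiomyocyte markers were abundant in all 16 libraries and, of 4 atrial markers, Myl7, Sln and Bmp10 stayed at or near 0, while Myl4, a myosin light chain of atrial and fetal heart muscle, held 25.1 to 81.1 normalized counts. The atrial sum in TAC-Veh was 1.495 times that in Sham-Veh (exact permutation p = 0.0286, two-sided). Nearly all of this sum was Myl4, which did not pass the gene test used below. TAC-Veh replicate 1 held a sum of 82.3 and the other TAC-Veh libraries 39.2 to 42.9, against at most 39.1 in Sham-Veh. Summed over 9 markers, the cardiomyocyte level was 1466000 to 1573000 normalized counts in Sham-Veh, 1488000 to 1556000 in Sham-THZ1, 824100 to 1167000 in TAC-Veh and 1303000 to 1601000 in TAC-THZ1. Library TAC-Veh 2 stood apart, with the lowest cardiomyocyte sum and, at 91600 normalized counts, the highest sum of 7 fibroblast markers.

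Per kb of exon, Esrra had the highest level of the 10 genes in all 4 groups and Ppargc1b the lowest. In Sham-Veh, Esrra stood at 873 ± 43.1 normalized counts per kb (SD, n = 4), above 95.5% of all genes in the table. Rxrg followed at 512 ± 21.5 and Ppargc1a at 497 ± 41.5 per kb, and the ranges of these 2 overlapped. Rxra came next at 278 ± 22.7 per kb and Esrrg at 213 ± 7.52, each apart from its neighbours in the order.

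Below them, Ppara at 168 ± 27.3, Pparg at 152 ± 31.4, Esrrb at 138 ± 23.6 and Ppard at 123 ± 16.5 normalized counts per kb formed a chain in which each range met the next. Ppargc1b stood below all of these at 94.6 ± 10.1 per kb. The order was nearly kept in the other groups, although Pparg moved from rank 7 in Sham-Veh to rank 5 in TAC-Veh with the widest range of any gene there in proportion to its mean, 119 to 281 per kb. Lengths are those of all annotated exons of a gene merged, so a level per kb is lowered where much of the annotated exon sequence is not used in the heart.

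**Figure D1:**
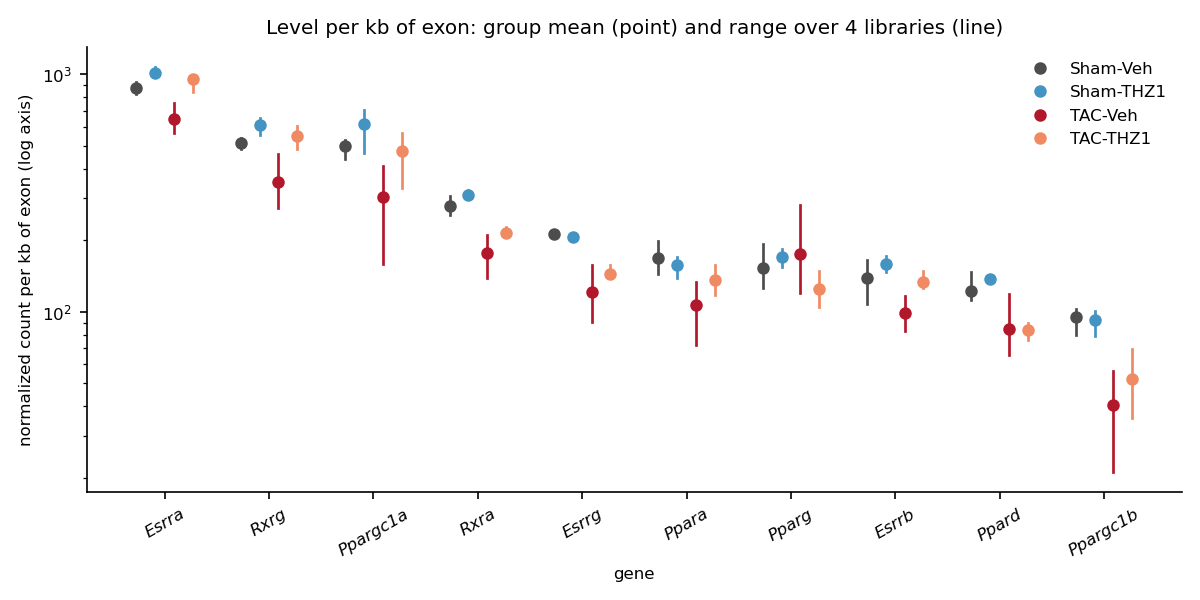
Level of each regulator in normalized counts per kb of exon (log axis), with the genes ordered by their Sham-Veh mean; points are group means and lines the range over 4 libraries. Esrra lies highest and Ppargc1b lowest in every group, and the TAC-Veh points lie below the Sham-Veh points for every gene other than Pparg.

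The promoters of the regulators themselves were searched for elements that these receptors bind and for the other elements named below. RefSeq promoter windows (build GRCm38.p6) were matched for 9 of the 10 genes, all but Ppargc1b, and the 250 bases before each annotated start were read on both strands. The extended half-site AAGGTCA, which estrogen-related receptors bind, was found for Rxra and Rxrg, 2 of 9 genes, against 4.7% of all 27025 genes with a window. It lay in a single window of each of these 2 genes, among 17 windows of the 9 genes, against 4.08% of all 32851 windows. A gene with more windows has more chances of a match, so the shares per gene are not on equal terms. The core half-site AGGTCA, which lies within AAGGTCA, was found for those 2 genes and for Pparg, against 15.8% of all genes. The direct repeat AGGTCANAGGTCA, the PPAR and retinoid X receptor element, was found for 0 of 9 genes and for 0.0407% of all genes. The element GCGCANGCGC, the core bound by the respiratory factor NRF1, was found for Ppara, against 4.23% of all genes. For TGACGTCA, which CREB binds, and CACGTG, an E-box, the counts were 0 of 9 genes, against 1.77% and 6.86% of all genes.

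The 3 windows with an extended half-site or an NRF1 core are shown, with the matches in capitals. In the Rxra window the capitals TGACCT mark a core half-site on the other strand. A match is a description of these letters, not evidence of binding, and the start that heart muscle uses was not measured.
Rxrg, chr1:167618015-167618264, plus strand, with AAGGTCA ending 83 bases before the start: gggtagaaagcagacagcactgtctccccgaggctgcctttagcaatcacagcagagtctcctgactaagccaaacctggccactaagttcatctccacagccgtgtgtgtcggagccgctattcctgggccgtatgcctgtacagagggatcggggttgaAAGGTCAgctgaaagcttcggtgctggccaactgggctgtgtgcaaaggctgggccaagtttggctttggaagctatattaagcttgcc
Rxra, chr2:27709042-27709291, plus strand, with AAGGTCA ending 43 bases before the start: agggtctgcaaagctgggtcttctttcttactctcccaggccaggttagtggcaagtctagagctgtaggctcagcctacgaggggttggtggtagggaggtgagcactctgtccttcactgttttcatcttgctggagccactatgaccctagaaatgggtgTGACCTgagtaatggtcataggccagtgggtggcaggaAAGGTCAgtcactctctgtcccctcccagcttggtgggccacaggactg
Ppara, chr15:85735526-85735775, plus strand, with the NRF1 core ending 22 bases before the start: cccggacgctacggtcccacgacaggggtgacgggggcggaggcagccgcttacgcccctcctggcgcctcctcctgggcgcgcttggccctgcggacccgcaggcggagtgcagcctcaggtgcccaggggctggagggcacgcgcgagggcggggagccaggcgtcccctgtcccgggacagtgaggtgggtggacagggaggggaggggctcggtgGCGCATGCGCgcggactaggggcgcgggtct

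Positions of the genes themselves are in mouse build mm9, the build of the counts, from the GENCODE M1 annotation. The PPAR genes lie at chr15:85565413-85633249 (Ppara, ENSMUSG00000022383), chr17:28369699-28438414 (Ppard, ENSMUSG00000002250) and chr6:115311239-115440419 (Pparg, ENSMUSG00000000440). Ppargc1a (ENSMUSG00000029167) spans chr5:51845488-51958964 and Ppargc1b (ENSMUSG00000033871) spans chr18:61457790-61560085. Esrra (ENSMUSG00000024955) is the most compact locus, at chr19:6985467-6996303, against chr12:87702067-87862578 for Esrrb (ENSMUSG00000021255) and chr1:189432670-190038764 for Esrrg (ENSMUSG00000026610). The retinoid X receptors lie at chr2:27531960-27618477 (Rxra, ENSMUSG00000015846) and chr1:169528515-169569754 (Rxrg, ENSMUSG00000015843).

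The first comparison, TAC-Veh against Sham-Veh, asked how pressure overload alone changed the regulators. Of the 10, all but Pparg were lower in the constricted hearts: 9 fell and 0 rose in a limma fit across all genes at an adjusted p under 0.05, and edgeR and DESeq2 on the recovered reads gave the same counts. Ppargc1b fell most, to 0.408 times its sham level (2 to the power of its log2 fold change), while Pparg did not pass the test. Over all 13331 genes tested, 23.6% were called lower and 21.4% higher. The median log2 fold change of the 10 regulators was -0.62, and that of all genes was -0.003; each log2 value here is of the normalized count plus 1, with its standard error (SE). In these bulk samples, fewer cells of a type and less RNA per cell cannot be told apart.

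Among the PPARs, Ppara is the main fatty acid sensor of heart muscle. Its 4 Sham-Veh libraries held 560.1, 700.3, 763 and 552 normalized counts, and its TAC-Veh libraries 510, 277, 422 and 429. Every constricted heart lay below every sham heart, by a log2 fold change of -0.67 (SE 0.16, limma adjusted p = 0.00244). Ppard, a receptor present in most tissues, held 527, 549, 516 and 681 normalized counts in Sham-Veh and 305, 328, 377 and 551 in TAC-Veh. Here the highest constricted heart, replicate 4, lay above 3 of the 4 sham hearts, yet the mean fell by 0.57 on the log2 scale (SE 0.14, limma adjusted p = 0.0033).

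Pparg, best known as the receptor that drives fat cell formation, behaved otherwise. It held 323, 256, 249 and 381 normalized counts in Sham-Veh and 557, 237, 314 and 284 in TAC-Veh. A single constricted heart, replicate 1, stood far above the rest and the others lay within the sham range or just below it, and the log2 fold change was 0.15 (SE 0.21, 95% interval -0.29 to 0.58, limma adjusted p = 0.594). Without TAC-Veh replicate 1 the log2 fold change of Pparg was -0.11 (limma adjusted p = 0.600). Fabp4, a fatty acid-binding protein of fat cells and capillary endothelium, was also highest in that library, at 33670 normalized counts. The 7 other fat cell markers, Adipoq, Cidec, Plin1, Lep, Retn, Ucp1 and Cfd, reached at most 18.4 normalized counts in any library.

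The PGC-1 coactivators showed the largest falls of a family. Ppargc1a, which links demand signals to mitochondrial gene expression, held 2905, 3508, 3471 and 3305 normalized counts in Sham-Veh and 2729, 1053, 2369 and 1942 in TAC-Veh. The groups did not overlap, although replicate 1 of TAC-Veh lay close to the lowest sham heart and replicate 2 was by far the lowest, and the log2 fold change was -0.79 (SE 0.23, limma adjusted p = 0.011). Ppargc1b, its close relative, held 395, 388, 409 and 318 normalized counts in Sham-Veh against 84.7, 154, 184 and 224 in TAC-Veh. Every constricted heart was well below the sham range, and Ppargc1b was the only regulator whose log2 fold change, -1.30 (SE 0.23, limma adjusted p = 0.000333), exceeded 1 in size.

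All 3 estrogen-related receptors fell. Esrra, the most abundant and itself a known PGC-1 target, held 2095, 2197, 2215 and 2361 normalized counts in Sham-Veh and 1513, 1440, 1916 and 1740 in TAC-Veh. Its groups were apart, by a log2 fold change of -0.43 (SE 0.08, limma adjusted p = 0.000496). Esrrb, known best from stem cells and the inner ear, held 651, 847, 849 and 999.5 in Sham-Veh and 581, 503, 598 and 704 in TAC-Veh, a change of -0.48 (SE 0.11, limma adjusted p = 0.00277). The lowest sham heart lay within the constricted range for Esrrb, so its groups overlapped. Esrrg, needed for the oxidative program of the newborn heart, held 1289, 1375, 1275 and 1343 in Sham-Veh against 662, 561, 807 and 974.5 in TAC-Veh. The sham hearts were tightly grouped and well above every constricted heart, and the log2 fold change of -0.84 (SE 0.12) had the smallest adjusted p of the 10 genes, 3.28e-05 in the limma fit.

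The retinoid X receptors, the DNA-binding partners of the PPARs, fell as well. Rxra held 1453, 1551, 1389 and 1674 normalized counts in Sham-Veh and 757, 937, 1004 and 1152 in TAC-Veh, without overlap, for a log2 fold change of -0.67 (SE 0.10, limma adjusted p = 4.72e-05). Rxrg, the receptor largely restricted to muscle and brain, held 1113, 1174, 1187 and 1233 in Sham-Veh and 795, 626, 1058 and 738 in TAC-Veh. Its groups were also apart, by -0.57 (SE 0.12, limma adjusted p = 0.000917), with replicate 3 nearest to the sham range. Rxrb, the third retinoid X receptor, is among the partner genes counted further on and is named here after its values were seen; its log2 fold change was -0.20 (SE 0.08, limma adjusted p = 0.0457).

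**Figure D2:**
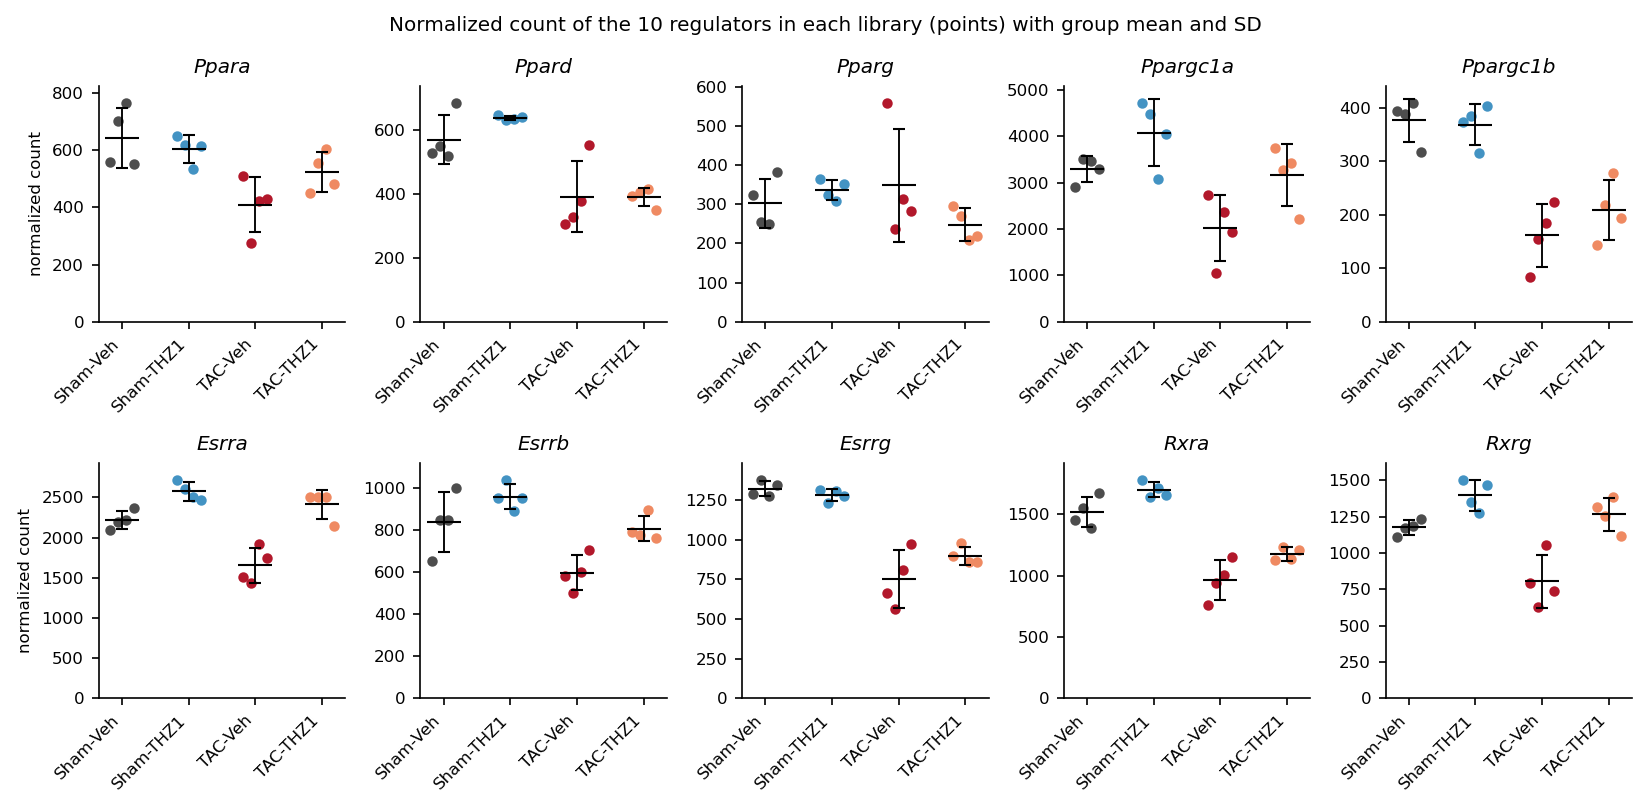
Normalized count of each of the 10 regulators (vertical axes, each from 0) in the 16 libraries, as points in order of replicate number within each group; bars give the group mean and SD, n = 4. The TAC-Veh mean lies below the Sham-Veh mean for 9 genes, and the TAC-THZ1 points of Esrra, Esrrb and Rxrg lie above all TAC-Veh points.

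Markers of cell types moved with the same comparison. The summed cardiomyocyte markers fell to 0.691 times the sham mean and lay lower in 4 of 4 constricted hearts (exact permutation p = 0.0286, two-sided, the smallest that 4 against 4 libraries can give), with 0 of 9 markers called higher and 4 called lower. Myh6, a myosin gene that pressure overload is known to turn down, carried much of this. The 8 other markers together fell to 0.807 times the sham mean (exact permutation p = 0.0286), but they did not move alike. From Sham-Veh to TAC-Veh, mean normalized counts of Ryr2 went from 32766 to 18213, of Pln from 156741 to 87322 and of Tnni3 from 102290 to 63715. Tnnt2 and Myl2 fell less. Actn2 (41206 and 40228), Mybpc3 (92685 and 95144) and Actc1 (209073 and 208600) stayed near their Sham-Veh means. The 7 fibroblast markers summed to 2.38 times the sham mean, from 26830 to 29760 normalized counts in Sham-Veh to 51520 to 91600 in TAC-Veh, with 5 of 7 called higher. Macrophage markers summed to 1.45 times, with 4 of 7 called higher.

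Relative to the cardiomyocyte markers, fewer regulators were lower. When each library was centred on the mean log2 value of the 9 markers, the median of all genes shifted up by 0.48. Of all genes called on this scale, 6.7% were lower. Of the 10 regulators 2 were lower and 1 higher. Ppargc1b, at -0.81 (limma adjusted p = 0.00546), and Esrrg, at -0.36 (limma adjusted p = 0.0041), were still lower, whereas Pparg was higher, at 0.63 (limma adjusted p = 0.00746). The other 7 were not called on this scale, and Esrra turned to 0.05. Centring on the 8 markers other than Myh6, an alternative chosen after seeing the data, also gave 2 lower and 1 higher. The part of cell composition in the fall was not tested.

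The second comparison, TAC-THZ1 against TAC-Veh, asked what the inhibitor changed in constricted hearts. Of the 10 regulators 5 rose and 0 fell, against 15.1% of all genes called higher and 14.2% called lower. The 5 were Ppargc1a, Rxrg, Esrra, Esrrb and Rxra. Their log2 fold changes ran from 0.31 to 0.70, and the median of all 10 was 0.39 against 0.015 over all genes. Ppara, Ppard, Pparg, Ppargc1b and Esrrg did not pass the test.

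Esrra and Rxrg showed the clearest rise. Esrra held 2505, 2500, 2503 and 2146 normalized counts in TAC-THZ1, all above the highest TAC-Veh library at 1916, for a log2 fold change of 0.55 (SE 0.08, limma adjusted p = 0.00025). Rxrg held 1315, 1254, 1386 and 1115 in TAC-THZ1, likewise all above TAC-Veh, and rose by 0.68 (SE 0.12, limma adjusted p = 0.000705). Their means stood at 109% and 108% of the Sham-Veh mean, a comparison that was not tested, while Sham-THZ1 stood at 116% and 119%. Esrrb held 791, 778, 894 and 761 normalized counts in TAC-THZ1 against at most 704 in TAC-Veh and rose by 0.44 (SE 0.11, limma adjusted p = 0.00892), a call lost with array weights (limma adjusted p = 0.0711).

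Ppargc1a had the largest estimate, but its libraries were widely spread. Its TAC-THZ1 libraries held 3748, 3268, 3420 and 2207 normalized counts, and replicate 4 lay below 2 of the 4 TAC-Veh libraries. The log2 fold change was 0.70 (SE 0.23, limma adjusted p = 0.0307), and the call was lost without TAC-Veh replicate 2, where it was 0.42 (limma adjusted p = 0.0958), and without TAC-THZ1 replicate 1, 2 or 3 (limma adjusted p = 0.0839, 0.0708 and 0.0675). Rxra held 1124, 1237, 1134 and 1211 in TAC-THZ1, just overlapping TAC-Veh, and rose by 0.31 (SE 0.10, limma adjusted p = 0.026). That call too was lost, at adjusted p of 0.0584 to 0.0721 in the limma fits, when any of TAC-Veh replicate 1 or 2 or TAC-THZ1 replicate 2 or 4 was left out. Both calls were lost when the constricted groups were fitted alone (limma adjusted p = 0.122 for each) and with array weights (limma adjusted p = 0.0796 for Ppargc1a and 0.0858 for Rxra), and that of Rxra also on totals without mitochondrial reads (limma adjusted p = 0.0999). Counting tools gave the same number of calls: edgeR and DESeq2, run on the recovered reads, each called 5 regulators higher and 0 lower.

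Of the 5 regulators without a call, Ppara, Esrrg and Ppargc1b had positive estimates. Ppara held 451, 554, 605 and 482 normalized counts in TAC-THZ1, overlapping TAC-Veh, with a log2 fold change of 0.38 (SE 0.16, limma adjusted p = 0.0801), and without TAC-Veh replicate 1 it was 0.49 and called (limma adjusted p = 0.0223). Esrrg held 893, 980, 859 and 857, close to the upper TAC-Veh libraries, with a change of 0.29 (SE 0.12, limma adjusted p = 0.0768), and 0.42 without TAC-Veh replicate 4 (limma adjusted p = 0.00348). Ppargc1b held 143, 218, 279 and 195, largely the TAC-Veh range, with 0.41 (SE 0.23, 95% interval -0.09 to 0.90, limma adjusted p = 0.2). It stood at 55.3% of its Sham-Veh mean, the lowest of the 10 genes in TAC-THZ1.

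Ppard and Pparg had the lowest estimates of the 10 genes. Ppard held 391, 404, 413 and 350 normalized counts in TAC-THZ1, in the middle of the TAC-Veh range, with a log2 fold change of 0.04 (95% interval -0.26 to 0.33, limma adjusted p = 0.875). Pparg held 295, 271, 208 and 218, 2 of them below every TAC-Veh library, with a negative estimate of -0.42 (SE 0.21, 95% interval -0.86 to 0.01, limma adjusted p = 0.134).

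**Figure D3:**
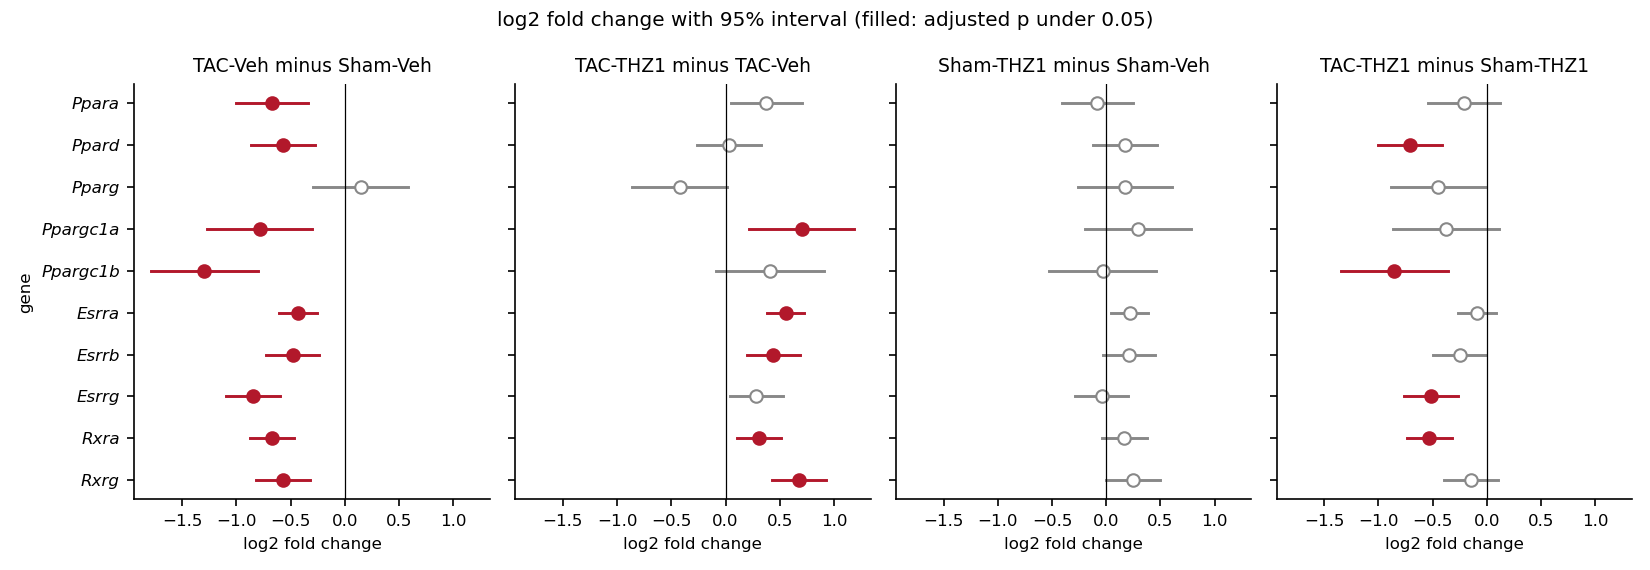
log2 fold change (horizontal axes) of the 10 regulators in 4 comparisons, with 95% intervals from the limma fit; filled red points had an adjusted p under 0.05. TAC moved 9 genes down under vehicle and 4 under THZ1, and THZ1 moved 5 up in constricted hearts and 0 in sham hearts. The difference of the drug effects, the interaction, is not drawn and called 0 of the 10. On the scale centred on cardiomyocyte markers Esrra in the first panel and Ppara, Ppard, Ppargc1b, Esrrg and Rxra in the second change sign.

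The cardiomyocyte markers rose in the same comparison, to 1.36 times the TAC-Veh mean and higher in 4 of 4 libraries (exact permutation p = 0.0286, two-sided), with 5 of 9 called higher and 0 lower. Fibroblast markers fell to 0.5 times, with 5 of 7 called lower. Centred on the cardiomyocyte markers, the median of all genes shifted down by 0.43, to -0.42, and 96.8% of all called genes were lower. There, 0 of the 10 regulators were higher in TAC-THZ1 and 2 were lower. These were Pparg at -0.86 (limma adjusted p = 0.00116) and Ppard at -0.40 (limma adjusted p = 0.0227), the latter near the median of all genes. On this scale Rxrg, at 0.24 (limma adjusted p = 0.0535), and Ppargc1a, at 0.27 (limma adjusted p = 0.218), had the largest positive values, and Ppara, Ppargc1b, Esrrg and Rxra turned to between -0.15 and -0.02. Without Myh6 among the markers, the alternative chosen after seeing the data, Rxrg was called higher, at 0.25 (limma adjusted p = 0.0457), beside the same 2 lower genes. The part of cell composition in the rise was not tested.

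**Figure D4:**
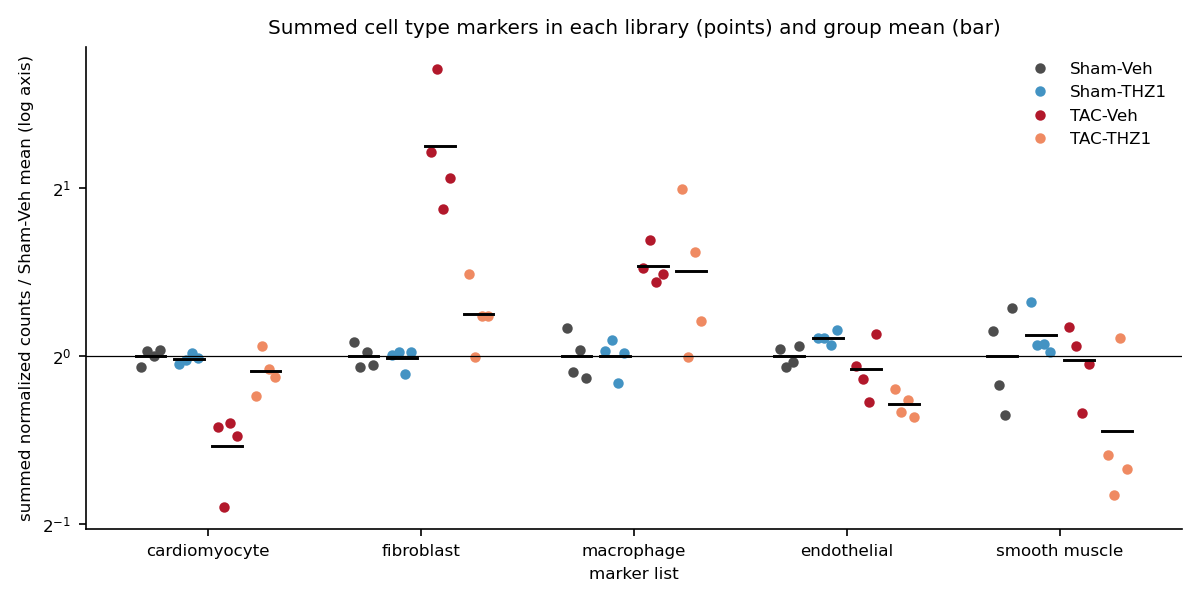
Summed normalized counts of the marker genes of 5 cell types in each library (points) and as group means (bars), divided by the Sham-Veh mean (vertical log axis). Cardiomyocyte sums are lowest and fibroblast sums highest in TAC-Veh, most of all in 1 library; fat cell and atrial lists are left out because their defining genes lie near 0.

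In sham hearts THZ1 moved 0 of the 10 regulators past the threshold in limma, edgeR or DESeq2, against 0.0225% of all genes called higher and 0.045% called lower. At an unadjusted p under 0.05, 1 of the 10 regulators passed, Esrra, against 917 of all 13331 genes. The median log2 fold change of the 10 was 0.17 against 0.003 over all genes. Esrra held 2716, 2609, 2498 and 2469 normalized counts in Sham-THZ1, all above Sham-Veh, with a log2 fold change of 0.22 (SE 0.08, limma adjusted p = 0.662). Rxrg held 1503, 1349, 1273 and 1470, again all above Sham-Veh, with 0.25 (SE 0.12, limma adjusted p = 0.728). When sham groups were fitted alone, both were called, at adjusted p of 0.0211 for Esrra and 0.0286 for Rxrg in limma, and Esrra also with array weights (limma adjusted p = 0.0289).

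The largest estimate was that of Ppargc1a, which held 4710, 4476, 3085 and 4041 normalized counts in Sham-THZ1, 3 of them above every Sham-Veh library, with 0.29 (SE 0.23, limma adjusted p = 0.881). Rxra held 1780, 1645, 1712 and 1660, and Esrrb 952, 1038, 891 and 954, both with positive estimates that overlapped Sham-Veh. Ppard was unusually even, with 644, 628, 632 and 638 normalized counts, inside the Sham-Veh range. Ppara, Ppargc1b and Esrrg had estimates of -0.08, -0.03 and -0.04, with Esrrg at 1312, 1232, 1305 and 1276, Ppargc1b at 373, 385, 315 and 403 and Ppara at 650, 616, 533 and 616. Pparg held 364, 322, 307 and 353, also within the Sham-Veh range.

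Whether THZ1 acted differently in constricted and sham hearts was tested as the interaction, the difference of the drug effects. By limma, edgeR and DESeq2, 0 of the 10 regulators passed, against 4.4% of all genes called higher and 5.62% called lower. At an unadjusted p under 0.05, where 3618 of all 13331 genes passed, 2 of the 10 regulators did. These were Esrra, at 0.34 (SE 0.12, limma adjusted p = 0.0722), and Rxrg, at 0.43 (SE 0.17, limma adjusted p = 0.106). Both were called without TAC-Veh replicate 3, at adjusted p of 0.0123 and 0.00561 in limma, and Esrra also without TAC-THZ1 replicate 4 (limma adjusted p = 0.0464). Esrrg, at 0.33 here, was called without TAC-Veh replicate 4, at 0.46 (limma adjusted p = 0.0266). Centred on the cardiomyocyte markers, 0 regulators were higher and 2 lower in the interaction, Pparg at -1.04 (limma adjusted p = 0.00853) and Ppard at -0.58 (limma adjusted p = 0.0305), and Esrra and Rxrg turned to -0.11 and -0.02. The median of all genes was -0.43 on that scale, and 97.9% of all called genes were lower.

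Under THZ1, constriction still separated the regulators. In TAC-THZ1 against Sham-THZ1, 4 of 10 were lower and 0 higher, against 12.8% of all genes called lower and 11.4% called higher, with a median log2 fold change of -0.41. This comparison shares no library with TAC-Veh against Sham-Veh. Ppard fell by 0.71 on the log2 scale (SE 0.14, limma adjusted p = 0.00294), Rxra by 0.53 (SE 0.10, limma adjusted p = 0.00198) and Esrrg by 0.52 (SE 0.12, limma adjusted p = 0.00604). Ppargc1b fell by 0.85 (SE 0.23, limma adjusted p = 0.0162), a call lost without TAC-THZ1 replicate 1, where the change was -0.69 (limma adjusted p = 0.0599).

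Every TAC-THZ1 library lay below every Sham-THZ1 library for these 4 genes, and also for Pparg, which was not called. The share of all genes with groups apart in this way was not counted. Esrra, Esrrb and Rxrg, by contrast, had negative estimates of -0.09, -0.25 and -0.14 that did not pass. The summed cardiomyocyte markers stood at 0.949 times the Sham-THZ1 mean (exact permutation p = 0.286, two-sided). The 8 markers other than Myh6 together stood at 1.12 times (exact permutation p = 0.0571), with 1 called higher and 1 lower. Centring on either set left the count of regulators at 4 lower and 0 higher. Other lists moved: endothelial markers summed to 0.76 times the Sham-THZ1 level (exact permutation p = 0.0286), with 4 of 7 called lower and 1 higher, and macrophage markers to 1.42 times (exact permutation p = 0.114), with 3 of 7 called higher. Their part in the result was not tested. Ppara, at -0.21, Ppargc1a, at -0.38, and Pparg, at -0.45, were not called either. Pparg was called, at -0.45, without TAC-Veh replicate 1 (limma adjusted p = 0.0237), a library that enters this contrast through the shared estimate of the spread. When the THZ1 groups were fitted alone, Esrrb and Pparg were called lower as well (limma adjusted p = 0.0148 and 0.0126), and with array weights Esrrb, Pparg and Ppargc1a were (limma adjusted p = 0.0374, 0.0175 and 0.0299).

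Genes that the regulators control and their partners were counted as 3 lists, 2 of targets and 1 of partners and coregulators, drawn from textbook knowledge with earlier results of these data known. Of all genes, as above, 23.6% were called lower with TAC and 15.1% higher with THZ1 in constricted hearts. Of 32 fatty acid genes, 31 could be tested, and in TAC-Veh against Sham-Veh 25 fell and 1 rose, with a median log2 fold change of -0.74. Centred on the cardiomyocyte markers, an alternative applied to the lists after seeing the data, 18 were lower and 6 higher, with a median of -0.26. On that scale the median of all genes was 0.48 with TAC and -0.42 with THZ1 in constricted hearts. It was -0.43 in the interaction and 0.04 with TAC under THZ1. Of all genes called on it, 6.7%, 96.8%, 97.9% and 48.6% were lower, in the same order. Acot1, a cytosolic thioesterase and PPARα target, fell by 2.58 (SE 0.28, limma adjusted p = 3.13e-06), from 135 ± 24.1 to 23.0 ± 11.1 normalized counts (SD, n = 4). Its near-identical neighbour Acot2 may share reads with it, so its level is uncertain. Ucp3, an uncoupling protein of muscle mitochondria, fell from 1408 ± 351 to 558 ± 329 (limma adjusted p = 0.00476).

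Acaa2, the thiolase of mitochondrial β-oxidation, fell from 16090 ± 646 to 6454 ± 2055 normalized counts (limma adjusted p = 6.66e-06). Angptl4, a secreted inhibitor of lipoprotein lipase and a PPAR target, was the single gene that rose, from 103 ± 38.0 to 224 ± 136, with overlapping groups (limma adjusted p = 0.0382). With THZ1 in constricted hearts 18 of the 31 rose and 2 fell, with a median of 0.44, whereas on the centred scale 5 were higher and 10 lower, with a median of 0.01. Acaa2 rose to 12310 ± 2083 (limma adjusted p = 0.000517) and Acot1 to 74.5 ± 34.5 (limma adjusted p = 0.000569), whereas Ucp3 stood at 637 ± 315 (limma adjusted p = 0.605).

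Angptl4 went the other way, down to 52.9 ± 18.4 normalized counts in TAC-THZ1 (limma adjusted p = 0.00169), while Sham-THZ1 held 303 ± 126. In the interaction 3 of the 31 fatty acid genes were higher and 2 lower, against 4.4% and 5.62% of all genes, and on the centred scale 1 was higher and 10 lower. The 5 called without centring were Acaa2, Ech1 and Eci1, enzymes of β-oxidation, and Angptl4 and Pdk4, a kinase that turns pyruvate away from oxidation. For Angptl4 the interaction was -3.52 (SE 0.55, limma adjusted p = 0.00225) and for Pdk4 -2.45 (SE 0.68, limma adjusted p = 0.0325). In sham hearts 0 of 31 were called by limma, edgeR or DESeq2, against 0.0225% of all genes called higher and 0.045% lower. At an unadjusted p under 0.05, 5 of the 31 passed, all higher, against 917 of all 13331 genes in either direction. Under THZ1 constriction lowered 22 of the 31 and raised 0, against 12.8% of all genes called lower, and 23 were lower on the centred scale.

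Of 31 mitochondrial genes, which estrogen-related receptors and PGC-1 control, 24 fell and 0 rose in TAC-Veh against Sham-Veh, with a median log2 fold change of -0.49, while the 9 cardiomyocyte markers had a median of -0.40. Centred on those markers, 3 mitochondrial genes were lower and 8 higher, with a median of -0.01, and without Myh6 among the markers 10 were lower and 2 higher. Sdha, a subunit of complex II, fell from 36890 ± 1041 to 21220 ± 2864 normalized counts (limma adjusted p = 1.00e-05) and stood at 30290 ± 3802 in TAC-THZ1. Ndufs1, of complex I, fell from 19960 ± 384 to 12140 ± 1416 (limma adjusted p = 1.15e-05) and Cs, the citrate synthase gene, from 32730 ± 1859 to 20290 ± 2901 (limma adjusted p = 3.82e-05). In TAC-THZ1 against TAC-Veh 27 of the 31 rose and 0 fell, with a median of 0.42 against 0.47 for the cardiomyocyte markers, and on the centred scale 0 were higher and 2 lower, with a median of -0.02. The part of cell composition in these changes was not tested. The rise was 0.52 for Sdha (SE 0.10, limma adjusted p = 0.0014), 0.40 for Ndufs1 (SE 0.09, limma adjusted p = 0.00408) and 0.48 for Cs (SE 0.10, limma adjusted p = 0.00231).

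Of the 31 mitochondrial genes 4 passed the interaction, all higher, against 4.4% of all genes, although on the centred scale 0 were higher and 1 lower. The 4 were Gabpa, a factor for respiratory genes, Tfam, the packaging protein of mitochondrial DNA, Sdha and Opa1. In sham hearts 0 of 31 were called by limma, edgeR or DESeq2, against 0.0225% of all genes called higher and 0.045% lower. At an unadjusted p under 0.05, 0 of 31 passed, against 917 of all 13331 genes. Under THZ1 constriction lowered 7 of 31 and raised 0, against 12.8% of all genes called lower and 22 of 31 fatty acid genes. The difference between the lists was not tested. In contrasts where the regulators or a list had calls in 1 direction only, edgeR and DESeq2 held 0 in the other direction as well. At an unadjusted p under 0.05 the count in that other direction was 0 too, other than 1 mitochondrial gene higher in TAC-THZ1 against Sham-THZ1.

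Of 20 partner and coregulator genes, 14 fell and 0 rose with TAC, with a median log2 fold change of -0.27. On the scale centred on cardiomyocyte markers 0 were lower and 9 higher, with a median of 0.22 against 0.48 over all genes. Lpin1, which binds PGC-1α and PPARα, fell by 0.60 (SE 0.09, limma adjusted p = 3.98e-05), Prkaa2, the catalytic subunit of the energy sensor AMPK in muscle, by 0.58 (SE 0.08, limma adjusted p = 4.66e-05) and Ncoa1, a receptor coactivator, by 0.58 (SE 0.08, limma adjusted p = 1.92e-05). With THZ1 in constricted hearts 4 of the 20 rose and 1 fell, against 15.1% and 14.2% of all genes, and edgeR called 2 higher and 1 lower. On the centred scale 0 were higher and 14 lower, with a median of -0.38 against -0.42 over all genes. The 4 called higher without centring were Rxrb, Ncoa2, Hdac3 and Nr0b2, and the 1 called lower was Prkaa1. Lpin1, Prkaa2 and Ncoa1 had log2 fold changes of 0.21, 0.17 and 0.20 that did not pass (limma adjusted p = 0.0694, 0.149 and 0.0569). Under THZ1 constriction lowered 10 of the 20 and raised 0, against 12.8% and 11.4% of all genes. On the centred scale 4 were lower and 0 higher there. The interaction held 0 calls by limma, edgeR or DESeq2, against 4.4% of all genes called higher and 5.62% lower. So did the sham contrast, against 0.0225% higher and 0.045% lower. At an unadjusted p under 0.05, 6 of the 20 passed in the interaction and 1 in sham hearts, against 3618 and 917 of all 13331 genes.

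**Figure D5:**
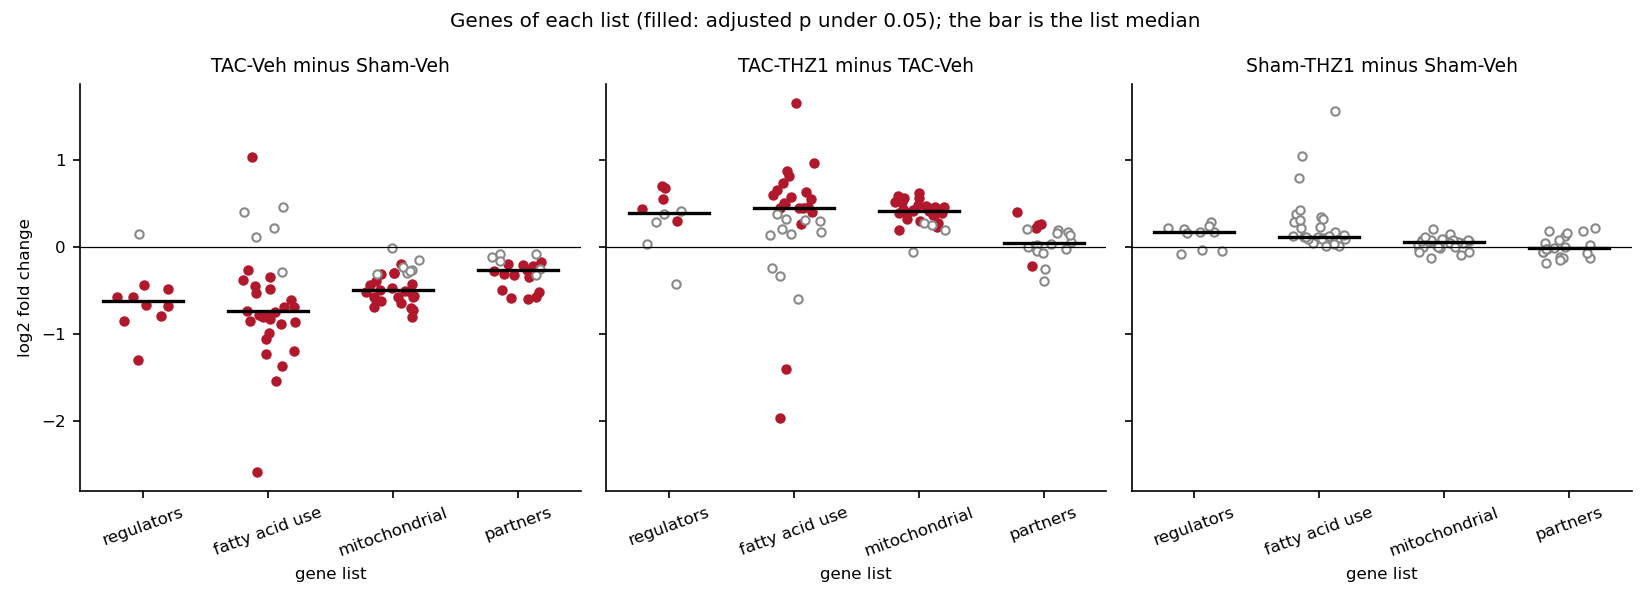
log2 fold change (vertical axis) of every tested gene in the regulators and the 3 lists, in 3 comparisons; filled red points had an adjusted p under 0.05, the horizontal spread is only for display, and bars are list medians. The regulators and both target lists lie mostly below 0 with TAC (medians -0.62, -0.74 and -0.49) and mostly above 0 with THZ1 in constricted hearts (0.39, 0.44 and 0.42), while no sham point is filled; on the scale centred on cardiomyocyte markers Esrra in the first panel and 5 regulators in the second change sign, and the medians of the mitochondrial list become -0.01 and -0.02.

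Across the 16 libraries, the regulators did not follow a single pattern, and correlations are given as descriptions over 16 libraries that share groups and scaling. With each group's mean subtracted, Esrra and Rxrg kept a Pearson r of 0.80, Ppara and Ppargc1a one of 0.77, and Ppard one of 0.82 with Rxra and 0.79 with Esrrg. Ppargc1a and Ppargc1b, the 2 coactivators, had -0.17, and Ppargc1b had -0.72 with Pparg. Esrra and Rxrg are also the pair of highest TAC-THZ1 levels relative to sham, while Ppard, Esrrg and Rxra are 3 of the 4 genes that stayed lower under THZ1.

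In a search of 10307 genes whose mean reached 100 normalized counts, the closest patterns over all 16 libraries were as follows. Esrrg was closest to Myh6 (r = 0.988; 0.936 within groups), the adult cardiac myosin gene, then to Mylk4 and Sort1. Ppard was closest to Kdm6b (0.981; 0.966 within groups), Arid1a and Eif4ebp2, and Rxra to Arhgef17 (0.983; 0.921), Mef2d and Mllt6. Ppargc1b went with Dnmt3a (0.963; 0.902), Kcnj2 and Cux2.

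Esrra was closest to Tcfeb (0.974; 0.813 within groups), 4632415K11Rik and St3gal3, and Rxrg to Khdrbs3 (0.966; 0.863), 2610528E23Rik and Pnkd. Ppargc1a went with Cyth1 (0.939; 0.864), Got1 and Arl8b, Ppara with Pnck (0.925; 0.853) and Lamb3, and Esrrb with Med25 (0.948), Leng8 and Bag6. Pparg had the weakest best match of the 10 genes, Eltd1 (0.883; 0.874), an adhesion receptor of endothelial cells, followed by Gpr56 and Lrrc8a. The 7 endothelial markers summed to 0.948 times the Sham-Veh mean in TAC-Veh and 0.864 times the TAC-Veh mean in TAC-THZ1 (exact permutation p = 0.457 and 0.0857, two-sided).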

How the data were processed

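Total RNA from a piece of ventricle was sequenced as stranded poly(A) libraries. Per the labels and the study's methods, the authors aligned reads with TopHat2 2.1.1 to mm9, counted them per gene with HTSeq for the reverse strand, and divided counts by DESeq2 size factors over all mouse libraries; the versions of HTSeq and DESeq2 are not given in the sources used here. The deposited values are thus a signal, counts per gene over a size factor. Dividing each column by its smallest step gave whole reads for 100% of values (tolerance 0.001) and library totals of 21431703 to 35812869 reads.

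Values were taken as log2(normalized count + 1), kept where at least 10 in at least 4 libraries, and fitted with limma 3.58.1 (R 4.3.3; 1 mean for each of 4 groups, eBayes with trend). p-values were two-sided and adjusted by Benjamini-Hochberg over the 13331 genes within each of 5 contrasts; a gene is called at an adjusted p under 0.05. edgeR 4.0.16 and DESeq2 1.42.0 were run on the recovered reads as alternatives, as were other pseudocounts, filters, scalings, fits and thresholds and leaving out each library. The scripts were tested on simulated data. Marker sums were compared by exact permutation tests (SciPy 1.17.1).

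The regulators, gene lists and tests were chosen with earlier results of these data known. The named genes are the 10 regulators; in each list, up to 3 called genes with the largest change in each direction in TAC-Veh against Sham-Veh; and the 3 genes most like each regulator, of which 1 is not reported here. Gene symbols and exon lengths came from GENCODE M1 and promoter sequences from RefSeq (GRCm38.p6). The labels name no batch or date. Replicates differed beyond counting noise in every group, so no library was counted as a repeat of another.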

Additional observations from a re-analysis of the deposited data

Results flagged for a closer look

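Of the 40 sets of 4 libraries, 1 for each regulator in each group, 1 held a library far from the others. Esrra in TAC-THZ1 was 2505, 2500 and 2503 normalized counts in replicates 1 to 3 and 2146 in replicate 4, so that the gap to the nearest library was 0.986 of the whole range. Chance flags about 1 in 20 such sets. The low library still lay above every TAC-Veh library, and its part in the result was not tested beyond leaving it out, which kept the call of Esrra in TAC-THZ1 against TAC-Veh.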

How the results depend on the processing

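The other pseudocounts and filters, the robust fit, upper quartile and quantile scaling, edgeR and DESeq2 left the numbers called unchanged in all 5 contrasts. Centring on cardiomyocyte markers gave 3 regulators called with TAC, 2 with THZ1 in TAC and 2 in the interaction, and without Myh6, an alternative added after seeing the data, 3, 3 and 2. Where the groups compared were fitted alone, 3 were called with THZ1 in TAC, 2 in sham hearts and 6 for TAC under THZ1. Array weights gave 2, 1 and 7. On totals without mitochondrial reads 4 were called with THZ1 in TAC. At an adjusted p under 0.01, 3 were called with THZ1 in TAC. A log2 fold change of at least 1 left 1 regulator with TAC, 0 with THZ1 in TAC and 0 for TAC under THZ1. Leaving out 1 library gave 3 to 6 calls for THZ1 in TAC, with 3 without TAC-Veh replicate 2 or TAC-THZ1 replicate 2, and 0 to 2 in the interaction.

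Signs turned on the cardiomyocyte scale, where all genes shifted by 0.48 with TAC, -0.43 with THZ1 in TAC and -0.45 in the interaction. With TAC, Esrra was 0.05. With THZ1 in TAC, Ppara was -0.06 (-0.05 without Myh6), Ppard -0.40 (-0.39), Ppargc1b -0.02 (-0.02), Esrrg -0.15 (-0.14) and Rxra -0.13 (-0.12). In the interaction, Ppargc1a was -0.04 (-0.03), Ppargc1b -0.01, Esrra -0.11 (-0.11), Esrrb -0.22 (-0.21), Esrrg -0.12 (-0.12), Rxra -0.31 (-0.31) and Rxrg -0.02 (-0.01). Ppard with THZ1 in TAC was also -0.03 on totals without mitochondrial reads, -0.06 with array weights and -0.01 in edgeR, and -0.07 to 0.21 leaving out 1 library. Leaving out 1 library gave Pparg -0.11 to 0.30 with TAC, Ppargc1b -0.11 to 0.04 in sham hearts and Ppard -0.24 to 0.04 in the interaction; none of these 3 was called in the full fit. The cause was not tested.

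The share of lower calls among all called genes moved from 52.4% to 6.7% with TAC and from 48.5% to 96.8% with THZ1 in TAC on the cardiomyocyte scale, and to 40.3% and 62.6% on totals without mitochondrial reads. DESeq2 raised the interaction calls from 3 to 6 fatty acid genes and from 4 to 12 mitochondrial genes. Other scalings were applied to the lists after seeing the data, and quantile scaling raised the latter to 13. Totals without mitochondrial reads lowered the partner genes called lower with TAC from 14 to 8 and those called higher with THZ1 in TAC from 4 to 1, and upper quartile scaling the last to 2. Same-numbered libraries did not deviate together (r from -0.431 to 0.164 over 24 pairs, against -0.231 to 0.309 over 72 pairs of different number). So few libraries cannot exclude a pairing by number or a shared batch. With the replicate block 9, 5, 0, 0 and 4 regulators were called in the 5 contrasts, as without it. With 4 libraries a group, differences near the standard errors given could not be detected.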
